A study of Homo sapiens with 32 samples.

Results

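The comparison asked where the response to RO4929097 differed between a pair of human lung cancer lines. For each gene, the change from vehicle to RO4929097 in H460a was subtracted from the same change in A549 after 24 h, on the log2 scale of array intensity. This value is called the difference of effects below: it is positive where the inhibitor left the gene higher in A549 relative to H460a, and negative where it left the gene lower. It uses 16 of the 32 arrays of the study and was tested for 19775 genes. These were kept apart by their level in vehicle-treated cells: 14467 had a log2 mean of 6 or more in both lines, 806 were below 6 in 1 line, and 4502 were below 6 in both.

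A549 is an established lung adenocarcinoma line. H460a, written H460 in the series text, is a large cell carcinoma line. Both were given vehicle or 2 µM RO4929097 for 24 h, as 4 arrays a group: A549 vehicle, A549 RO4929097, H460a vehicle and H460a RO4929097. The same 4 groups at 6 h gave 16 further arrays. They are compared with 24 h at the end, and they also enter the choice of probe set and the estimate of spread behind every standard error and p-value below. With the 24 h arrays alone 112 genes passed, 94 of them among the 126 reported below. The labels do not say whether the 4 replicates were separate cultures, so each p-value rests on array-to-array spread that could be purely technical. One line stands for each tumour type, so line and tumour type cannot be told apart.

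RO4929097 inhibits gamma-secretase, the membrane protease complex of a presenilin, nicastrin (NCSTN), APH1 and PSENEN. When a ligand such as JAG1 or JAG2 engages a Notch receptor on a neighbouring cell, a sheddase trims the receptor and gamma-secretase then frees its intracellular part. That part enters the nucleus and, with the DNA-binding protein RBPJ, switches on genes such as those of the HES and HEY repressor families. In lung epithelium Notch signalling is known for setting the balance between secretory and ciliated cells. Gamma-secretase also cuts many other membrane proteins.

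The lines were set against marker genes in vehicle-treated cells. The epithelial keratins KRT8 and KRT18 were at 13.69 and 14.75 in A549 and 12.87 and 13.73 in H460a. The E-cadherin gene CDH1 was at 10.64 in A549 and 4.72 in H460a, and the epithelial marker EPCAM was below 6 in both lines. The leukocyte marker PTPRC was at 5.13 and 5.17. A level of 6 is not a detection call: the T-cell gene CD3E read 6.74 and 6.96, and the surfactant gene SFTPC 8.27 and 8.34. Where a group lies near or below 6, its signal cannot be told from background, and the size of a change or difference that rests on it is uncertain. The CD3E and SFTPC readings leave the same doubt for some genes above 6. Expressed in both lines therefore means here only a level of 6 or more, and a flat H460a value at a modest level may hide a response. Mean intensity of the 24 h arrays lay between 584.4 and 613.5 except for H460a RO4929097 array 3, at 570.2. Its median log2 value was 6.64, against 6.57 to 6.63 on the others. Its part in the results was measured by leaving it out, as given below.

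Of the 19775 genes, 126 passed an adjusted p of 0.05 for the difference of effects (0.637%; limma with Benjamini-Hochberg adjustment). The difference was above 0 for 72 of them (0.364%) and below 0 for 54 (0.273%). Among genes at 6 or more in both lines 103 passed (0.712%), 64 above and 39 below 0. Their median size was 0.557 on the log2 scale, and 6 exceeded 1. Among genes low in 1 line 15 passed (1.86%), and 8 passed among the 4502 genes low in both. The share above 0 moved with the scaling and with single arrays. It was 62.1% of the 103 genes, 49.3% with quantile normalization over all arrays (69 above, 71 below) and 48.0% with it within each line (61 and 66). With weighted arrays it was 47.5% (114 and 126), and without H460a RO4929097 array 3 it was 49.0% (47 and 49). Leaving out any other single 24 h array gave 52.1% (H460a vehicle array 3) to 64.9% (H460a vehicle array 4). Single arrays also moved the counts. The counts over all genes and over genes expressed in both lines were 72 and 59 without A549 vehicle array 1, 81 and 65 without A549 vehicle array 2, 75 and 57 without A549 RO4929097 array 2, and 78 and 65 without A549 RO4929097 array 3. They were 82 and 65 without H460a vehicle array 2, and 84 and 68 without H460a RO4929097 array 4.

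The genes that differed were mostly genes that changed in A549 and had small estimates in H460a. Within A549 alone, 437 genes passed the threshold for RO4929097 against vehicle (2.21%), 262 rising (1.32%) and 175 falling (0.885%). Within H460a 1 gene passed (0.00506%), and 1145 had an unadjusted p under 0.05, which is 5.79% of those tested. The A549 effect passed for 95 of the 103 genes, 61 rising and 34 falling, and the H460a effect for 0 of them. These counts place the genes and are no further test, since the same arrays enter both contrasts. The median size of the effect among the 103 genes was 0.467 in A549 and 0.0936 in H460a. For 8 of them neither line's own effect passed, and for 7 the H460a estimate was the larger. A further description comes from the 437 genes called in A549, whose H460a values come from other arrays: 264 had the same sign in H460a (60.4%), against 51.3% of all genes. Those that rose in A549 had a median of 0.377 there and 0.0152 in H460a, and those that fell had medians of -0.441 and -0.0507.

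**Figure D1:**
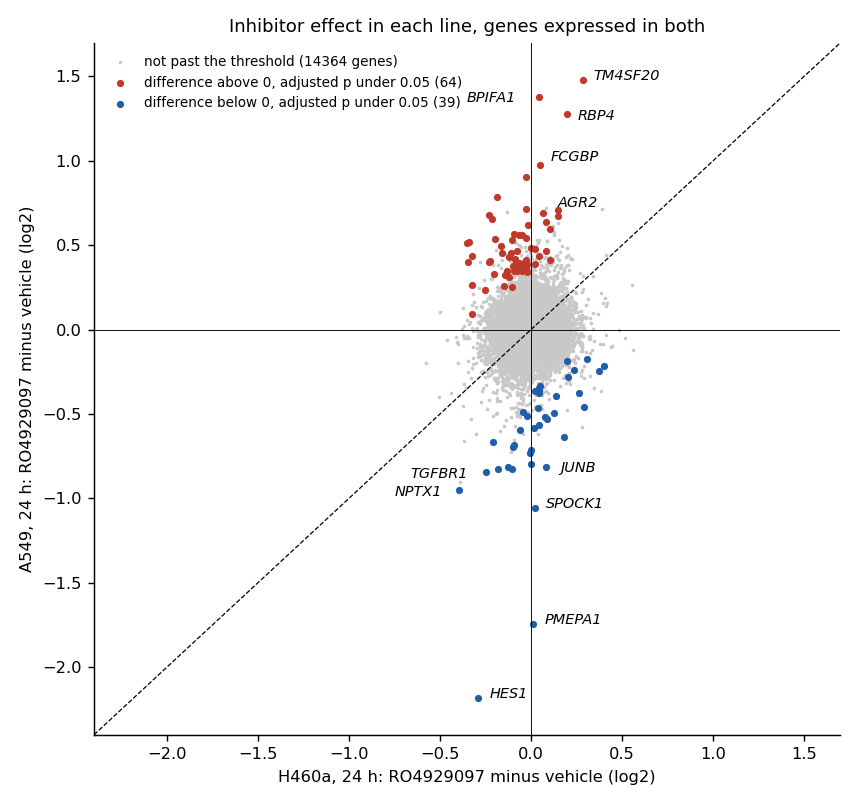
Change from vehicle to RO4929097 at 24 h (log2) in H460a (horizontal) and A549 (vertical) for genes at 6 or more in both lines, 1 point a gene. The 103 coloured genes passed the threshold for the difference of effects and stretch along the A549 axis, while their H460a values lie near 0; the dashed line marks equal effects.

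HES1, the classical Notch target and a transcriptional repressor, had the largest difference below 0 among genes expressed in both lines. Its log2 level on the A549 vehicle arrays was 9.82, 9.98, 10.09 and 10.05, and on the RO4929097 arrays 7.64, 7.74, 7.90 and 7.93. In H460a the vehicle arrays read 6.24, 6.33, 6.54 and 6.64 and the treated arrays 5.85, 6.37, 6.39 and 5.98. The A549 groups were fully separated, whereas the H460a groups overlapped. HES1 fell to 0.22 of its vehicle level in A549 (-2.18 ± 0.13 SE, adjusted p = 1.29e-13). The H460a estimate was -0.29 ± 0.13 (adjusted p = 0.823), from a vehicle mean of 6.44 ± 0.18 (SD, n = 4) that lies close to the level of 6. The difference of effects was -1.90 ± 0.18 (95% interval -2.26 to -1.53, adjusted p = 4.78e-08). A second HES1 probe set gave -1.81 and the last, at 5.97 and 6.05 in the vehicle groups, gave 0.18.

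No other Notch target passed for the difference of effects, though several were lower in treated A549 cells. HES4 was at 8.63 ± 0.11 and 8.13 ± 0.11 in A549 without and with the inhibitor, and at 8.02 ± 0.06 and 7.83 ± 0.07 in H460a (SD, n = 4). Its treated arrays were below the vehicle arrays in both lines, and the drop passed the threshold in A549 (-0.50, adjusted p = 0.00381). The difference between lines was -0.31 ± 0.15, with an interval of -0.61 to -0.01 and an adjusted p of 0.526. The HEY1 arrays were likewise apart in both lines, with -0.62 in A549 (adjusted p = 2.8e-06) and -0.30 in H460a (adjusted p = 0.34), with a difference of -0.32 ± 0.11 (adjusted p = 0.279). HEYL and NRARP, a Notch feedback inhibitor, had differences of 0.12 and 0.11 (adjusted p = 0.923 and 0.836). SNAI2, a repressor linked to epithelial-mesenchymal transition, fell in A549 (-0.91), with -0.39 in H460a and a difference of -0.51 ± 0.18 (adjusted p = 0.288). MYC and CCND1 had differences of -0.06 and 0.02. Of the 31 measured Notch target genes, HES1 alone passed for the difference (3.23%), where 0.637% of all genes passed. At that background share few or none of the others would pass. The list median was -0.0626, against 0.0133 for all genes tested. In A549 alone 7 of the 31 fell and 1 rose, where 0.885% of all genes fell and 1.32% rose.

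The stretches of 250 bases upstream of HES1, HES4 and HEYL are shown because all 3 hold the RBPJ core, while only HES1 of the 3 passed for the difference. They are taken from RefSeq (GRCh38.p14), written on the gene's own strand and 5′ to 3′, and capitals mark TGGGAA or its reverse complement TTCCCA. HES1 lies at chr3:194135898-194136147 on the plus strand, HES4 at chr1:1000098-1000347 on the minus strand and HEYL at chr1:39639644-39639893 on the minus strand.
HES1: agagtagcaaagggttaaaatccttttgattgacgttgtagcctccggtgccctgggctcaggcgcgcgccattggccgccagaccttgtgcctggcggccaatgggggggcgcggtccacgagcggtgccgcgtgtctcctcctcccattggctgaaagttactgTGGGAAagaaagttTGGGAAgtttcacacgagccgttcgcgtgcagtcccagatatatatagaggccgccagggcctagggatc
HES4: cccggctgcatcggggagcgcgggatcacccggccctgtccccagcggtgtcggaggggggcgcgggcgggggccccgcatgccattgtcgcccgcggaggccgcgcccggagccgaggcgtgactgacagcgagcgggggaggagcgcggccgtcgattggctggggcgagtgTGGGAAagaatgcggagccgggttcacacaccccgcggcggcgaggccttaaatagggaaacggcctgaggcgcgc
HEYL: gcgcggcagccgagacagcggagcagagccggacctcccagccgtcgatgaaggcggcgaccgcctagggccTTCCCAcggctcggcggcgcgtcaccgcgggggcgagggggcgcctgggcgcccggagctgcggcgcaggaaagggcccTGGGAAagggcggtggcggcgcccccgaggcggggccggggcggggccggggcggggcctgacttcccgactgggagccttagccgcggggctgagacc
The HES1 stretch had 2 matches in the same direction, starting 84 and 70 bases before the start of transcription. HES4 had 1 such match at 76 bases, and HEYL had 2 in opposite directions at 178 and 99 bases. Across 27305 promoters of this length, searched on both strands, 21.1% held TGGGAA. Of the genes expressed in both lines that had a promoter in the table, it was present in 5 of 29 with a difference below 0 (17.2%) and 9 of 49 above 0 (18.4%). A match is a description of the letters and not of binding.

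Among genes that produce and pass the Notch signal none passed for the difference, a count near the background, since 0.637% of all genes passed. This held for the 29 measured receptors, ligands and cofactors with a list median of -0.00804, and for the 9 measured gamma-secretase subunits and sheddases, with 0.0127 (limma). The receptor NOTCH3 was at 9.61 in A549 and 12.73 in H460a vehicle cells, NOTCH1 at 7.83 and 7.88, and NOTCH2 at 10.39 and 10.22. Their differences of effects were 0.16, -0.07 and 0.13 (adjusted p = 0.754, 0.951 and 0.834). The ligand JAG1 had a difference of -0.23 (adjusted p = 0.713), with vehicle means of 12.03 in A549 and 9.09 in H460a. JAG2 fell in A549 (-0.33, adjusted p = 0.000961), with -0.08 in H460a and a difference of -0.24 ± 0.08 (adjusted p = 0.287). Among the subunits, differences were 0.01 for PSEN2, 0.07 for NCSTN, -0.09 for APH1A and 0.23 for APH1B. That of PSENEN was -0.24 ± 0.35; its H460a arrays ranged from 8.42 to 9.73, the widest spread of these genes, so a difference of up to -0.94 lies within its interval. Of 29 measured genes for gamma-secretase substrates, 2 passed, 1 above and 1 below 0, against 0.637% of all genes. IL6R, the interleukin-6 receptor, rose in A549 (0.45), with -0.16 in H460a and a difference of 0.61 ± 0.14 (adjusted p = 0.0295). IL6R passed in 5 of the 16 fits that left out 1 array and not with the mean of its probe sets, of which the others gave 0.62 and 0.105. TYRP1, a melanosome enzyme below 6 in both lines, fell in A549, with a difference of -1.001.

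A group of TGF-beta response genes fell in A549 and differed below 0. Of the 29 measured genes of this list 5 passed below 0, against 0.273% of all genes, and 0 above. Of the 29 estimates 23 were negative, against 46.1% of all genes. Its median was -0.221, against 0.0133 over all genes tested. In A549 alone 11 of the 29 fell, against 0.885% of all genes, and 0 rose, and in H460a 0 passed (1 of all 19775 genes passed there). The 5 were PMEPA1, JUNB, KLF10, TGFBR1 and ID2, the last named after its value was seen. All lists in this report were chosen with earlier results of these data known. Their shares and medians beside those of all genes are descriptions and no independent test.

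PMEPA1, a feedback inhibitor that binds the SMAD proteins of the TGF-beta pathway, had the smallest adjusted p of the 126 genes. Its A549 vehicle arrays read 12.44, 12.61, 12.49 and 12.42 and its treated arrays 10.66, 10.85, 10.73 and 10.75. In H460a they read 7.55, 7.58, 7.89 and 7.63 without and 7.89, 7.70, 7.49 and 7.63 with the inhibitor. It fell to 0.299 of the vehicle level in A549, with groups far apart, while in H460a they overlapped around 7.66. The difference was -1.76 ± 0.11 (interval -1.97 to -1.54, adjusted p = 4.84e-13), and its 2 other probe sets gave -1.59 and -1.63.

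JUNB, an AP-1 transcription factor and an early target of several signals, had nearly the same vehicle level in both lines, well above 6. The A549 vehicle arrays were at 10.60, 10.81, 10.72 and 10.65 and the treated ones at 9.86, 9.91, 9.88 and 9.89. The H460a vehicle arrays were at 10.77, 10.88, 10.96 and 10.87 and the treated ones at 11.01, 10.99, 10.86 and 10.95. All A549 treated arrays lay below every other 24 h array. JUNB fell by 0.81 in A549, the H460a estimate was 0.08, and the difference was -0.90 ± 0.09 (adjusted p = 2.44e-07). KLF10, a TGF-beta inducible zinc finger repressor, was also near equal in the vehicle groups, at 11.27 ± 0.06 and 10.81 ± 0.07 (SD, n = 4). It fell to 0.564 of the vehicle level in A549, with a difference of -0.72 ± 0.15 (adjusted p = 0.00961). TGFBR1, the type I receptor, fell in A549 (-0.84), with -0.25 in H460a and a difference of -0.60 ± 0.12 (adjusted p = 0.0116). A second TGFBR1 probe set gave -0.56 in A549 and -0.40 in H460a, and the gene did not pass when its probe sets were averaged. ID2, an inhibitor of helix-loop-helix factors, had vehicle means of 11.71 and 11.69 and a difference of -0.54 ± 0.12 (adjusted p = 0.0235). Within the list SMAD7 and SKIL, feedback inhibitors of the same pathway, fell in A549 (-0.73 and -0.62), and their differences of -0.58 ± 0.20 and -0.57 ± 0.20 did not pass (adjusted p = 0.258 and 0.289). Both are named after their values were seen.

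**Figure D2:**
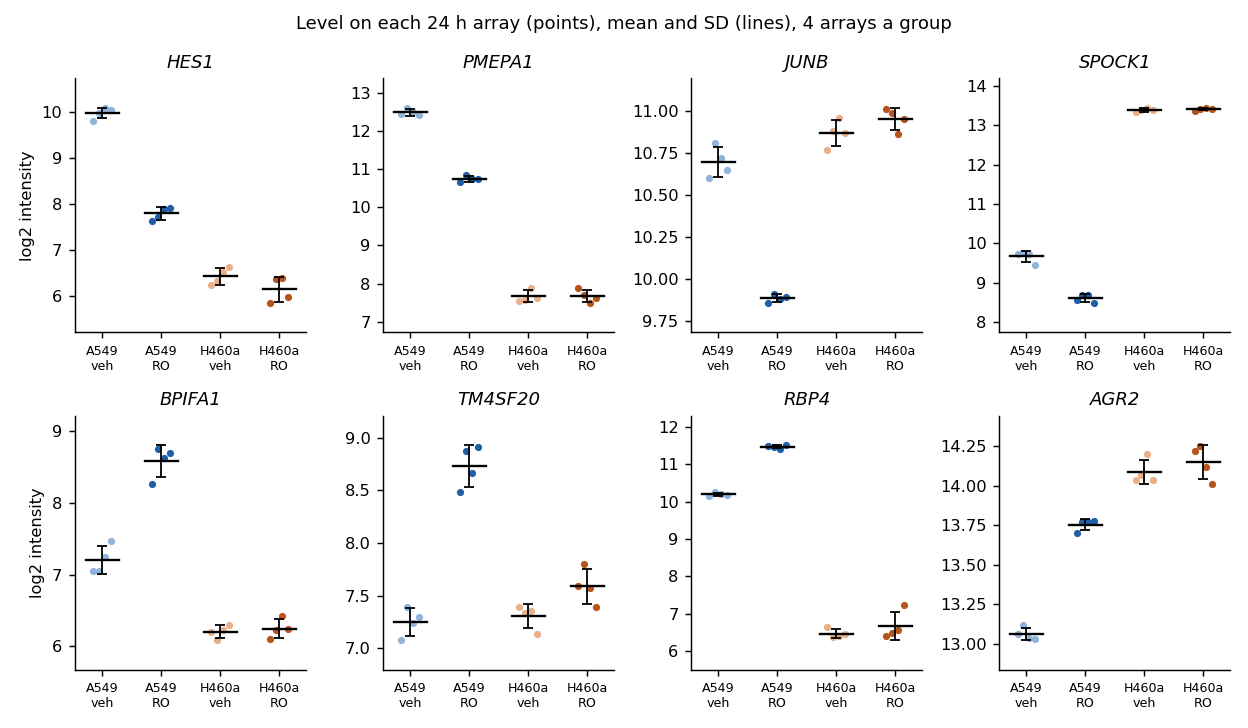
Log2 intensity on each 24 h array for 8 genes (points), with the mean and SD of 4 arrays (lines); each panel has its own vertical scale. The first 4 genes are lower and the last 4 higher in treated (RO) than in vehicle (veh) A549 cells, and the H460a groups overlap in all panels except TM4SF20.

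Matrix genes gave the other group below 0. Of 38 measured collagens and extracellular matrix genes, 5 passed below 0, against 0.273% of all genes, and 0 above. The list median was -0.0879, against 0.0133 for all genes. Of the 28 at 6 or more in both lines 4 passed, where 0.712% of all such genes passed in either direction. The median of the 28 was -0.126, against 0.0182 for all such genes. SPOCK1, a secreted proteoglycan, read 9.74, 9.76, 9.72 and 9.46 on A549 vehicle and 8.58, 8.70, 8.68 and 8.49 on treated arrays. In H460a it was far brighter, at 13.34, 13.38, 13.44 and 13.38 without and 13.36, 13.42, 13.43 and 13.41 with the inhibitor. It fell to 0.48 of its level in A549 and the H460a arrays overlapped, all between 13.34 and 13.44. The difference was -1.08 ± 0.11 (adjusted p = 2.05e-07). COL5A1, a fibrillar collagen chain, fell to 0.57 in A549, with -0.13 in H460a and a difference of -0.68 ± 0.14 (adjusted p = 0.012). Its 2 other probe sets gave -0.94 and -0.91. COL4A1, a basement membrane collagen named after its value was seen, had a difference of -0.59 ± 0.14 (adjusted p = 0.0301). MMP7, a matrix protease, lay at the edge of both limits: its H460a vehicle mean was 6.02 and its difference -0.62 ± 0.15 had an adjusted p of 0.0496. It passed in 4 of the 16 fits that left out 1 array, and not with the 24 h arrays alone or the replicate number as a block. TNFAIP6, which modifies hyaluronan, belongs to the genes low in H460a and is described with them. The fibroblast markers, 10 measured, had 0 genes past the threshold in A549, in H460a or for the difference. These counts are near the background, since 2.21%, 0.00506% and 0.637% of all genes passed.

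Further genes with large differences below 0 have no list in common. TFPI2, a secreted protease inhibitor, was well above 6 in both lines, with A549 arrays at 12.33, 12.34, 12.42 and 12.33 for vehicle and 11.60, 11.67, 11.67 and 11.62 with the inhibitor. The H460a arrays read 13.04, 12.90, 12.97 and 13.02 and 13.08, 12.99, 12.85 and 13.02. The groups did not overlap in A549 and did in H460a, and the difference was -0.72 ± 0.11 (adjusted p = 0.000178). PGM2L1, a sugar bisphosphate synthase, had -0.82, PID1, an adaptor that dampens insulin signalling, -0.80, and FHOD3, a formin that assembles actin, -0.73 (adjusted p = 0.000174, 0.000226 and 0.00112). Of the other PGM2L1 probe sets, 1 gave 0.10 and the rest -0.58, -0.53 and -0.78. Those of PID1 gave 0.15 and -0.24, and PID1 did not pass with their mean. In FHOD3 the vehicle levels were 8.08 and 8.23 and the H460a effect 0.00 ± 0.09. LBH, a transcriptional cofactor, fell in A549 (-0.83), with -0.18 in H460a and a difference of -0.65 ± 0.14 (adjusted p = 0.0168). The histone gene H4C8 had -0.75 ± 0.17 (adjusted p = 0.0287) and passed in 8 of the 16 fits that left out 1 array. Its other probe set gave -0.33. It has many near-identical copies, so its probe set may not be specific. NPTX1, a neuronal pentraxin, fell in A549 (-0.95) and had treated arrays wholly below vehicle in H460a too (-0.39, adjusted p = 0.296), with a difference of -0.56 ± 0.14 (adjusted p = 0.045). It passed in 2 of the 16 fits that left out 1 array, and not with median centring.

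Some secretory airway genes rose in A549 and differed above 0. Of 23 measured goblet and club cell genes, 3 passed above 0, against 0.364% of all genes, and 0 below. The list median was 0.121. It was 0.275 for the 16 at 6 or more in both lines, against 0.0182 for all such genes. In A549 alone 6 of the 23 rose, against 1.32% of all genes, and 0 fell. BPIFA1, a secreted airway defence protein, had the largest difference above 0 of all genes expressed in both lines. Its arrays read 7.05, 7.05, 7.25 and 7.47 for A549 vehicle and 8.26, 8.75, 8.62 and 8.70 for A549 RO4929097. They read 6.21, 6.08, 6.23 and 6.30 for H460a vehicle and 6.10, 6.23, 6.42 and 6.24 for H460a RO4929097, close to the level of 6. BPIFA1 rose 2.6-fold in A549 with no overlap, the H460a groups overlapped, and the difference was 1.33 ± 0.14 (interval 1.04 to 1.63, adjusted p = 4.24e-07).

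AGR2, a disulfide isomerase that folds mucins, shows the same direction at a high level in both lines. The A549 arrays rose from 13.06, 13.12, 13.04 and 13.03 to 13.70, 13.77, 13.77 and 13.78. Those of H460a were brighter, at 14.04, 14.07, 14.20 and 14.04 without and 14.22, 14.25, 14.12 and 14.01 with the inhibitor. The A549 groups were apart, the H460a groups overlapped, and the difference was 0.63 ± 0.10 (adjusted p = 0.000731); the second AGR2 probe set gave 0.63 as well. FCGBP, a mucus protein that binds the Fc part of IgG, rose 1.97-fold in A549 from 9.93 ± 0.09 (SD, n = 4). Its H460a means were 6.76 without and 6.81 with the inhibitor. The H460a effect was 0.05, and this modest level, near the CD3E reading, may hide a response. The difference of effects was 0.93 ± 0.15 (adjusted p = 0.000406). The gel-forming mucin MUC5AC, the protease inhibitor SLPI and BPIFB1, named after their values were seen, rose in A549 (0.30, 0.41 and 0.35), and their differences of 0.29, 0.36 and 0.26 did not pass (adjusted p = 0.383, 0.216 and 0.448). Of 14 measured alveolar type II genes 0 passed for the difference, near the background of 0.637% of all genes, at a median of 0.12. In A549 2 of them rose, against 1.32% of all genes.

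Some genes typical of liver and gut rose in A549 and differed above 0 as well. Of 26 measured enterohepatic and plasma protein genes, 4 passed above 0, against 0.364% of all genes, and 0 below. The list median was 0.204, against 0.0133 for all genes. Of the 18 at 6 or more in both lines 3 passed, where 0.712% of all such genes passed in either direction. The median of the 18 was 0.267, against 0.0182 for all such genes. TM4SF20, a membrane protein of the tetraspanin-like L6 family, read 7.08, 7.39, 7.24 and 7.30 in A549 vehicle and 8.48, 8.87, 8.67 and 8.91 in treated cells. In H460a it read 7.39, 7.33, 7.36 and 7.14 and 7.59, 7.80, 7.57 and 7.40. The A549 groups were 1.48 apart. In H460a every treated array was also above every vehicle array, by a small margin, and that effect of 0.29 ± 0.10 did not pass (adjusted p = 0.595). The difference was 1.20 ± 0.14 (adjusted p = 4.46e-06), from vehicle means of 7.25 and 7.31.

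RBP4, the plasma carrier of retinol, rose 2.42-fold in A549, from 10.16, 10.25, 10.22 and 10.18 to 11.49, 11.47, 11.42 and 11.52. In H460a it was lower, at 6.64, 6.37, 6.40 and 6.46 without and 6.39, 6.48, 6.56 and 7.23 with the inhibitor. The A549 groups were narrow and far apart, and in H460a 1 treated array, at 7.23, was above the rest. The difference was 1.08 ± 0.20 (adjusted p = 0.00296). The other RBP4 probe set, at 5.59 and 5.50 in the vehicle groups, gave -0.05, and the mean of both gave 0.52 (adjusted p = 0.0368). FGG, the fibrinogen gamma chain, rose 1.45-fold in A549, with -0.20 in H460a and a difference of 0.73 ± 0.15 (adjusted p = 0.0147). The fibrinogen genes FGA and FGB had differences of 0.27 and 0.21 (adjusted p = 0.578 and 0.889). TM4SF4, related to TM4SF20, fell just outside the 14467 genes, with an H460a vehicle mean of 5.99, and had 0.54 ± 0.12 (adjusted p = 0.0295). It passed in 5 of the 16 fits that left out 1 array, and not with the 24 h arrays alone.

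Few lipid genes passed, all above 0. CIDEC, which fuses lipid droplets, was at 8.04 ± 0.11 and 8.95 ± 0.11 in A549 without and with the inhibitor and at 6.89 ± 0.07 and 6.86 ± 0.18 in H460a (SD, n = 4). It rose 1.87-fold in A549, and the difference was 0.93 ± 0.14 (adjusted p = 0.000205). LPIN1, a phosphatidate phosphatase, had 0.39 ± 0.09 (adjusted p = 0.0484), and passed in 4 of the 16 fits that left out 1 array. LPIN1 did not pass with the 24 h arrays alone, median centring or the replicate number as a block. Its other probe sets gave 0.41 and 0.40. These were the 2 of 21 measured lipid droplet and triglyceride genes to pass, at a list median of 0.075. Of all genes 0.364% passed above 0. PLIN2, a droplet coat protein named after its value was seen, rose in A549 (0.47) and had a difference of 0.66 ± 0.18 (adjusted p = 0.0826). Of 23 measured cholesterol and fatty acid synthesis genes 1 passed above 0, INSIG1, which holds back the sterol-regulated transcription factors (0.49 ± 0.11, adjusted p = 0.0235). It passed in 9 of the 16 fits that left out 1 array and not with the mean of its probe sets. In A549 alone 7 of the 23 rose, against 1.32% of all genes; the list medians were 0.194 in A549 and 0.105 in H460a.

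The remaining large differences above 0 were in genes of mixed function. ATP8B4, a member of the phospholipid-transporting ATPase family, rose in A549 and had a difference of 0.97 ± 0.13 (adjusted p = 7.92e-05); its vehicle means of 6.25 and 6.12 lie near background. SERPINF1, a secreted anti-angiogenic serpin, had 0.87 ± 0.17 and PLCE1, a phospholipase C that signals with RAS, 0.75 ± 0.11 (adjusted p = 0.00728 and 0.000276). In PLCE1 the groups were apart in both lines, 0.40 in A549 and -0.35 in H460a, and the second did not pass on its own (adjusted p = 0.242). A second PLCE1 probe set gave 0.30 and -0.15, a difference of 0.45. The rest, below 6 in both lines, had differences between -0.03 and 0.20. PLCE1 still passed with the mean of its probe sets. ARID5B, a chromatin factor, had 0.52 and -0.34 and a difference of 0.86 ± 0.12 (adjusted p = 0.000152). Its 4 other probe sets, all below 6 in both lines, gave between -0.16 and 0.08, and the mean of all gave 0.14 (adjusted p = 0.479). DDC, an enzyme of dopamine and serotonin synthesis, had 0.91 ± 0.17 (adjusted p = 0.00406), but its other probe set gave -0.27. HOXB2 and FTCDNL1 had 0.86 and 0.75 (adjusted p = 0.0193 and 0.0211), and each passed in 12 of the 16 fits without 1 array. The HOXB2 groups overlapped in A549. Part of each difference rests on H460a arrays near or below 6, at 6.26 (vehicle) and 5.91 (treated) for HOXB2 and 6.08 and 5.76 for FTCDNL1. The H460a means were also low for DDC (6.01 and 5.78) and SERPINF1 (6.56 and 6.345). The size of these differences is therefore uncertain. The other FTCDNL1 probe set gave -0.01, and FTCDNL1 did not pass with their mean or with the 24 h arrays alone. KRT19, an epithelial keratin, rose in A549 from 6.86 to 7.48 and was at 13.79 and 13.77 in H460a, with 0.64 ± 0.15 (adjusted p = 0.0425). It passed in 3 of the 16 fits that left out 1 array, and not with either quantile normalization, 32 added before log2 or the mean of its probe sets. SLC7A2, a transporter of cationic amino acids, had 0.37 ± 0.09 (adjusted p = 0.0341). It passed in 6 of the 16 fits that left out 1 array, and not with the 24 h arrays alone, median centring or the mean of its probe sets. It was the 1 of 24 measured NRF2 targets to pass, where 0.637% of all genes passed.

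**Figure D3:**
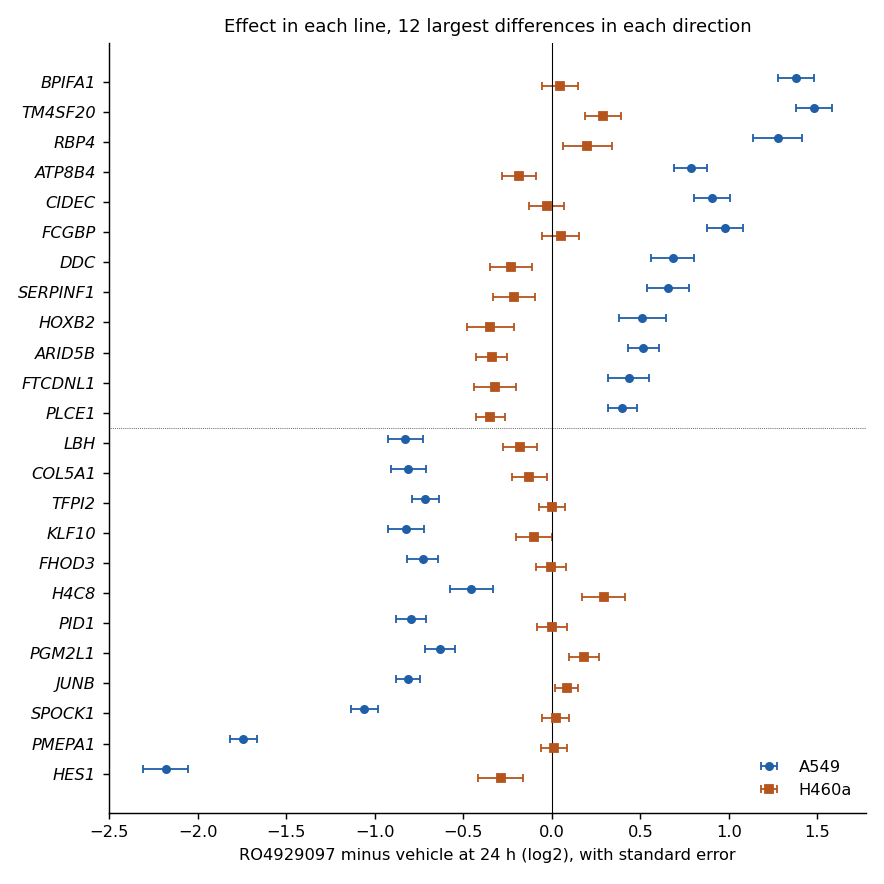
Change from vehicle to RO4929097 at 24 h (log2, with standard error) in A549 (circles) and H460a (squares) for the 12 genes with the largest difference in each direction among those expressed in both lines. All 12 lower genes have their A549 value below 0 and all 12 upper genes above 0, while H460a values lie between -0.35 and 0.29.

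Genes low in 1 line were kept apart, because the response of the low line cannot be told from background and a difference in response is not shown by them. Of the 15 that passed, 13 were low in H460a, 4 with a difference above and 9 below 0, and 2 were low in A549. TNFAIP6, low in H460a, fell in A549, from 7.18, 7.11, 7.30 and 7.02 to 5.50, 5.40, 5.48 and 5.36. The treated A549 arrays are below 6, so the full size of the fall is uncertain. Its H460a arrays lay between 4.29 and 4.86 in both groups. The difference was -1.71 ± 0.15 (adjusted p = 6.74e-09), and a second probe set gave -2.56. C3orf80 (-1.67 ± 0.24) and RNF182, a ubiquitin ligase (-1.36 ± 0.14), followed (adjusted p = 9.43e-05 and 2.44e-07). The RNF182 groups did not overlap in H460a either, at 4.26 and 4.63, both well below 6. VCAN, a matrix proteoglycan, was at 12.74 ± 0.06 and 12.23 ± 0.05 in A549 (SD, n = 4), and its own effect there did not pass (adjusted p = 0.0722). Its difference of -0.92 ± 0.21 (adjusted p = 0.0301) includes 0.41 from H460a arrays below or near 6. It passed in 7 of the 16 fits that left out 1 array, and its 4 other probe sets gave -0.86, -0.81, -0.55 and -0.53. ACKR3, a chemokine scavenger receptor, had -0.90, and CYP24A1, which breaks down vitamin D and was at 13.36 in A549 vehicle cells, -0.83 (adjusted p = 0.00128 and 0.012). VGLL3, a TEAD cofactor, had -0.77 (adjusted p = 0.0217). Above 0 were RAB37, a secretory granule GTPase (0.95 ± 0.18), the annexin ANXA10 (0.86 ± 0.15) and CYP4F3, which degrades leukotriene B4 (0.77 ± 0.17). Their adjusted p were 0.00475, 0.00128 and 0.0221. VGLL3 passed in 12 and CYP4F3 in 11 of the 16 fits that left out 1 array, and CYP4F3 not with the 24 h arrays alone.

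In the 2 genes low in A549 the larger estimate was that of H460a. RGCC, a cell cycle regulator, read 8.28, 8.35, 8.35 and 8.49 on H460a vehicle and 8.02, 7.93, 7.66 and 7.89 on treated arrays, with no overlap (-0.50 ± 0.11, adjusted p = 0.19). Its A549 arrays were between 4.42 and 5.15, below 6, and the groups overlapped, with 0.40 for the inhibitor there (adjusted p = 0.0386). The RGCC difference was 0.90 ± 0.15 (adjusted p = 0.00115). Its 2 other probe sets, below 6 in both lines, gave 0.01 and 0.19. EPSTI1, an interferon-inducible gene, read 7.76, 8.03, 8.08 and 7.89 and 7.43, 7.45, 7.40 and 7.40 in H460a, again with no overlap (-0.52 ± 0.12, adjusted p = 0.206), and the difference was 0.79 ± 0.17 (adjusted p = 0.0147). The other EPSTI1 probe set, below 6 in both lines, gave -0.13. Neither H460a effect passed on its own.

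The proximal promoters of TNFAIP6 and TFPI2, which both fell in A549, are shown because both hold the AP-1 motif TGANTCA. They are the 250 bases before the start on the gene's strand (RefSeq, GRCh38.p14), chr2:151357342-151357591 on the plus strand and chr7:93890754-93891003 on the minus strand. Capitals mark TGANTCA, and in TFPI2 also TTCCCA, the RBPJ core on the opposite strand.
TNFAIP6: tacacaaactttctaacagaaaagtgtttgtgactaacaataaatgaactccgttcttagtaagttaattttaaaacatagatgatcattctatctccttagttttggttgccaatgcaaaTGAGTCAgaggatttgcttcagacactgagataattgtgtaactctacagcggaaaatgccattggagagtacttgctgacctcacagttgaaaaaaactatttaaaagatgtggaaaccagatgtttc
TFPI2: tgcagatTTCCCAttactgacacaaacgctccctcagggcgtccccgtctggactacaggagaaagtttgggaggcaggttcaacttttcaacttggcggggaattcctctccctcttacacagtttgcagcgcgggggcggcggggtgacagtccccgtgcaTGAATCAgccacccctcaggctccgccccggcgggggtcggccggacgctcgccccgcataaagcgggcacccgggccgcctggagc
The match starts 129 bases before the start of transcription in TNFAIP6 and 87 in TFPI2. TGANTCA, searched on both strands, was present in 6.6% of all 27305 promoters, in 3 of 29 (10.3%) of those below 0 and in 2 of 49 (4.08%) of those above 0 among genes expressed in both lines. Of the other named genes with a promoter in the table, MMP7 and CYP4F3 also held it, and CYP4F3 rose in A549. TNFAIP6 and CYP4F3, low in H460a, are outside these counts.

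The 103 genes varied widely in their vehicle levels. Both lines were at 8 or more for 56 of them, and for 17 the lower line lay between 6 and 6.5. The lines were within 1 of each other for 59. Of the 39 genes below 0, 31 had the higher vehicle level in A549, and of the 64 above 0, 31 did, against 50.6% of all genes expressed in both lines. The part of the starting level in the difference was not tested. Just inside the level of 6 were DDC (6.01), MMP7 (6.02) and GRTP1 (6.06), and just outside were TM4SF4 (5.99), MYH7B (5.85) and ERICH4 (5.80).

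The plot of 8 gene lists shows the spread within each. The remaining lists had at most 2 genes past the threshold, where 0.637% of all genes passed. Of the 31 immediate early and AP-1 genes 2 passed (6.45%), JUNB and KLF10. Of the 23 YAP and TEAD targets 2 passed (8.7%), VGLL3 and GADD45B. The 18 aryl hydrocarbon and drug metabolism genes had 1 above (CYP4F3) and 1 below (CYP24A1), 11.1% in all. The 16 neuroendocrine genes had 1 above (DDC) and 1 below (NPTX1), 12.5% in all. VGLL3, CYP4F3 and CYP24A1 are low in H460a, so a difference in response is not shown by them. None passed for the difference in the lists for S phase (36 genes), G2 and mitosis (40), p53 targets (24), ER stress (30), hypoxia and glycolysis (32), type I interferon (29), cytokines and chemokines (26), ribosomal proteins (17) or oxidative phosphorylation (26), by limma. A count of 0 in lists of this length is near the background, since 0.637% of all genes passed. Over all genes tested 1783 had an unadjusted p under 0.05.

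**Figure D4:**
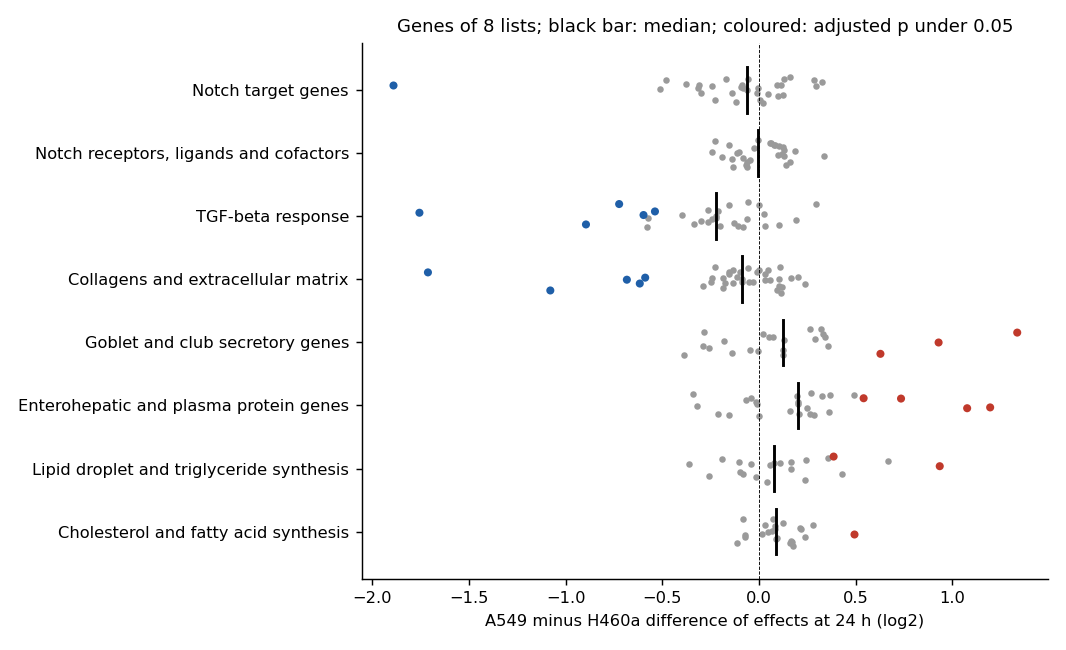
Difference of effects at 24 h (log2, A549 minus H460a) for each measured gene of 8 lists, 1 point a gene; black bars are list medians and coloured points passed the threshold (blue below 0, red above). Called genes of the TGF-beta and matrix lists all lie below 0 and those of the secretory, enterohepatic and lipid lists all above. Genes low in 1 or both lines are included, among them the called TNFAIP6 and TM4SF4.

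The same contrast at 6 h used other arrays, and 24 genes passed it (0.121%). Of the 103 genes, 76 had the same sign at 6 h, 52 of the 64 above 0 and 24 of the 39 below, against 53.5% of all genes. At 6 h 56.2% of all genes were above 0, with a median of 0.027. Mean intensity moved with treatment in A549 at that time, from 468.1 to 495.7 on vehicle and from 495.8 to 589.3 on treated arrays, and its part in the 6 h values was not tested. One H460a vehicle array at 6 h stood apart in the log2 ratio of its 3′ to 5′ actin probe sets, at 2.19 against 0.14 to 0.29 on the other 6 h arrays. Without it, a choice made after seeing the data, 21 genes passed, 19 of them shared with the 24, and 82 of the 103 genes had the same sign at 6 h (55 of those above 0, 27 of those below). Of the 103 genes 7 also passed at 6 h, with that array and without it. HES1 was at -1.29 ± 0.18 (adjusted p = 0.000299), falling by 1.63 in A549 within 6 h. JUNB was at -0.88 ± 0.09, against -0.90 at 24 h, and LBH at -1.04 ± 0.14, against -0.65 at 24 h. PMEPA1 was at -0.54 ± 0.11, against -1.76 at 24 h. The change of these differences between times was not tested. IFFO2 (-0.53) and AVPI1 (0.47), named after their values were seen, kept their sign. ID2 did not: it was at 0.71 ± 0.12 at 6 h (adjusted p = 0.00395) and -0.54 at 24 h. SPOCK1, TFPI2, COL5A1 and BPIFA1 had 0.04, 0.21, 0.05 and -0.06 at 6 h, none past the threshold (adjusted p = 0.91, 0.351, 0.902 and 0.893). RBP4 and TM4SF20 had 0.50 and 0.27 (adjusted p = 0.217 and 0.394).

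**Figure D5:**
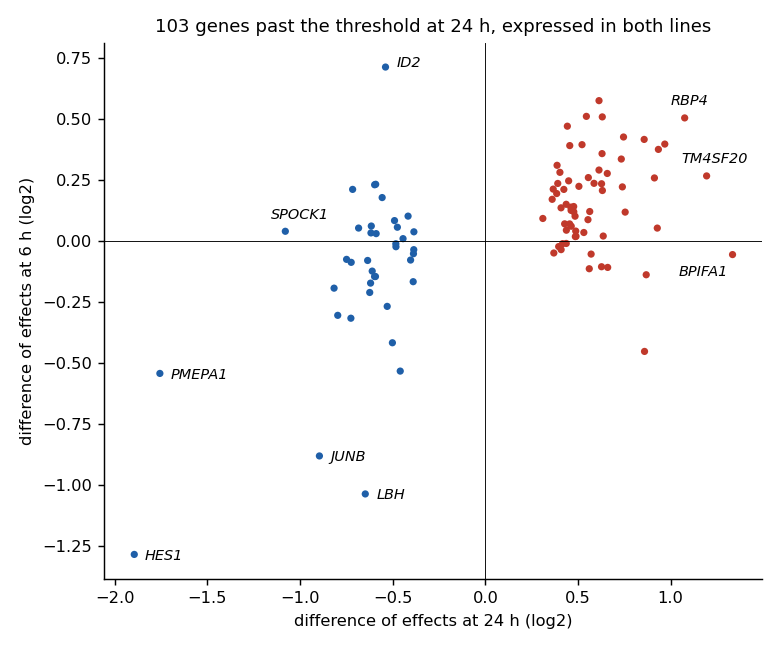
Difference of effects (log2) at 24 h (horizontal) and 6 h (vertical) for the 103 genes past the threshold at 24 h and expressed in both lines, 1 point a gene. HES1, LBH, JUNB and PMEPA1 lie well below 0 at both times, most other genes lie near 0 at 6 h, and ID2, below 0 at 24 h, is at 0.71 at 6 h.

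Of the 49 named genes that passed, 28 passed in each of the 16 fits that left out 1 array and in every other setting run on them. They include HES1, PMEPA1, SPOCK1, JUNB, KLF10, TFPI2, COL5A1, TNFAIP6, BPIFA1, TM4SF20, RBP4, CIDEC, FCGBP, AGR2 and FGG. None of the 49 changed direction in these fits.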

How the data were processed

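RNA of A549 and H460a cells was hybridised to Affymetrix arrays, 32 in 8 groups of 4. The authors deposited an intensity for each of 54675 probe sets, computed by RMA, per the submitters' processing notes; the sources used here do not give its version. The deposited intensity values, between 8.93 and 41962, were judged linear from their range and log2-transformed. RMA's quantile step would give arrays like distributions; here mean intensities differed between arrays, and the scaling was varied for that reason. Control probe sets (62) and those with several gene symbols (1801) or none (11721) were left out. The other 41091 stand for 19775 genes; where a gene had several, that with the highest mean over 32 arrays was used. A linear model with 1 mean per group (8) was fitted to all 32 arrays in limma 3.58.1 (lmFit, eBayes; R 4.3.3), with Benjamini-Hochberg adjustment over 19775 genes; the code was tested on simulated data. Tables and figures used Python 3.11.15, pandas 2.3.3 and matplotlib 3.10.9. The median standard error was 0.124 for the difference of effects and 0.0874 within a line; the number of arrays limits precision.

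The named genes were, past the threshold, the 12 largest in each direction among genes expressed in both lines and up to 6 in each among genes low in 1 line, always a set of Notch genes with the gamma-secretase complex, and up to 4 per list past the threshold: 66 in all. Of 719 genes in 29 lists, 663 were measured. The comparison, the genes and the lists were chosen with earlier results of these data known, so list shares and medians are descriptions. Alternatives varied the arrays, filter, probe sets, scaling, pseudocount, variance model, array weights, replicate block, size and level.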

Additional observations from a re-analysis of the deposited data

Results flagged for a closer look

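The difference of effects at 24 h passed the threshold in 49 named genes. Each value in parentheses is the log2 effect of RO4929097 in A549 minus that in H460a. Among genes expressed in both lines the difference was above 0 for BPIFA1 (1.334), TM4SF20 (1.195), RBP4 (1.076), ATP8B4 (0.969), CIDEC (0.934), FCGBP (0.928), DDC (0.913), SERPINF1 (0.869), HOXB2 (0.859), ARID5B (0.857), FTCDNL1 (0.755), PLCE1 (0.746), IL6R (0.614), KRT19 (0.636), AGR2 (0.628), LPIN1 (0.385), FGG (0.734), INSIG1 (0.49) and SLC7A2 (0.367). It was below 0 for HES1 (-1.895), PMEPA1 (-1.757), SPOCK1 (-1.08), JUNB (-0.896), PGM2L1 (-0.816), PID1 (-0.797), H4C8 (-0.749), FHOD3 (-0.726), KLF10 (-0.724), TFPI2 (-0.716), COL5A1 (-0.684), LBH (-0.648), TGFBR1 (-0.598), MMP7 (-0.617), GADD45B (-0.502) and NPTX1 (-0.557). Among genes low in 1 line, where the low line cannot be told from background and a difference in response is not shown, it was above 0 for RAB37 (0.948), RGCC (0.895), ANXA10 (0.864), EPSTI1 (0.789), CYP4F3 (0.774) and TM4SF4 (0.54), and below 0 for TNFAIP6 (-1.713), C3orf80 (-1.673), RNF182 (-1.363), VCAN (-0.922), ACKR3 (-0.898), CYP24A1 (-0.833) and VGLL3 (-0.766). TYRP1, low in both lines and open to the same limit, had -1.001.

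In 17 of the 264 groups of 4 arrays checked over the named genes (6.44%), 1 array lay far from the other 3 by Dixon's test, which chance gives in about 1 group in 20. On the log2 scale these arrays read 5.586 for DDC on H460a RO4929097 array 1, 7.739 for SERPINF1 on A549 vehicle array 3, 9.457 for SPOCK1 on A549 vehicle array 4, 6.853 for PID1 on A549 RO4929097 array 2, 7.141 for FHOD3 on A549 RO4929097 array 1, 7.87 for FHOD3 on A549 vehicle array 1, 12.418 for TFPI2 on A549 vehicle array 3, 10.262 for LBH on A549 vehicle array 3, 6.121 for C3orf80 on A549 vehicle array 1. The others read 8.4 for JAG2 on A549 vehicle array 3, 8.674 for JAG2 on H460a RO4929097 array 1, 5.347 for SNAI2 on A549 RO4929097 array 4, 10.008 for NCSTN on A549 vehicle array 1, 11.298 for APH1A on H460a vehicle array 3, 9.647 for PSENEN on H460a vehicle array 3, 13.704 for AGR2 on A549 RO4929097 array 1 and 8.831 for GADD45B on H460a RO4929097 array 4. In H460a vehicle 24 h, array 2 stood apart from the other 3 in mean intensity, at 592.685, and in median log2 value, at 6.605.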

How the results depend on the processing

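The counts refer to genes past the adjusted threshold: 126 in all, 103 expressed in both lines and 15 low in 1 line for the difference, 437 in A549, 1 in H460a and 24 for the difference at 6 h. No named gene past the threshold reversed its direction in any fit. With array weights (0.298 for H460a RO4929097 array 3) the counts were 283, 240, 23, 1169, 10 and 81, and 124 of the 126 genes were among the 283. With only the 24 h arrays and without that array, a choice made after seeing the data, 190, 162, 671 in A549 and 5 in H460a passed. Asking for a size of 0.58 as well left 65, 48, 64 in A549 and 0 in H460a. Genes low in 1 line numbered 3 among genes at or above the median level, 28 with every probe set tested and 27 with the level set at 7. The H460a count was 4 with quantile normalization over all arrays, within each line, or with 32 added before log2, and 0 with the mean of probe sets, every probe set or median centring. At 6 h the count was 217 at or above the median level, 40 and 37 with the quantile normalizations, 65 with 32 added and 129 with trend and robust eBayes. Leaving out 1 array at 24 h gave 72 to 117 genes in all, 57 to 96 expressed in both lines and 0 to 3 in H460a. The cause of these moves was not tested.

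Same-numbered arrays showed no clear pairing at 24 h, though 4 arrays a group cannot exclude it. Correlations of their deviations were 0.361, -0.0636, 0.228 and 0.0142 in A549 and 0.117, -0.114, 0.00725 and 0.275 in H460a. The means were 0.135 in A549 and 0.0712 in H460a, against -0.0439 and -0.0244 between arrays of different number. In A549 2 of 4 arrays and in H460a 1 of 4 correlated best with their own number. With the replicate number as a block 91 genes passed in all, 70 in both lines, 356 in A549, 0 in H460a and 10 at 6 h. The mean of a gene's probe sets ended the calls of DDC, ARID5B, FTCDNL1, PID1, EPSTI1, IL6R, TGFBR1, KRT19, INSIG1 and SLC7A2. RMA values carry no detection call, so levels near 6, and some above it, cannot be told from background.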
